A study of Homo sapiens with 6 samples.

Results

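Central carbon metabolism was read from 43 genes in HCT116 cells that overexpressed the RNA-binding protein RBM47. These genes comprised 17 glycolysis enzymes, 3 PFKFB genes that set the pace of glycolysis and 9 genes for the entry of pyruvate into mitochondria. The other 14 were listed as TCA cycle enzymes and include IDH1 and MDH1, which are cytosolic forms. The genes were chosen by gene symbol from textbook pathways, and each had a row among the 28491 genes of the count table. All 43 were among the 16260 genes tested, and each held at least 332 counts in every library, so the filter on low counts removed none of them. HCT116 is a human colorectal carcinoma line. The cells were transfected with an RBM47 expression plasmid (RBM47-OE) or a control plasmid (NC) by Lipofectamine and harvested at 48 h, and poly(A) RNA of 3 libraries per group was sequenced. The sources differ on the plasmid backbone (pcDNA3.1 with 3xFlag in the labels, pIRES-hrGFP-1a in the methods), the medium (DMEM or McCoy's 5A) and the library kit (NEBNext directional or KC stranded). Neither source says whether the 3 libraries of a group came from separate cultures, so the p-values measure the spread between these libraries only. Transfection is transient, and in a bulk sample a smaller share of cells expressing a gene and less RNA of it per cell cannot be told apart.

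Glycolysis breaks glucose down to pyruvate in the cytosol, and lactate dehydrogenase turns part of that pyruvate into lactate. Pyruvate carried into mitochondria is oxidized to acetyl-CoA by the pyruvate dehydrogenase complex, which the PDK kinases switch off by phosphorylation. The TCA cycle then oxidizes the acetyl group and feeds electrons to the respiratory chain. Tumor cells, colorectal lines included, are known for strong glycolysis even when oxygen is present, and several of these genes are classical targets of the hypoxia factor HIF1.

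The libraries held 26792409 to 35477983 counts on genes. RBM47 itself had 1.91, 2.33 and 1.94 FPKM (fragments scaled to gene length and to the mapped fragments of the library) in the NC libraries and 131, 130 and 127 FPKM in the RBM47-OE libraries, so the labels matched the plasmid. On the log2 scale RBM47 was higher by 5.90 (standard error, SE, 0.0964, adjusted p = 1.7e-25 in edgeR). Here and below, fold changes and adjusted p-values came from edgeR's quasi-likelihood test on the counts with Benjamini-Hochberg adjustment over all genes tested, and a gene was called at an adjusted p under 0.05. Epithelial markers were present, with KRT8 at a mean of 4300 CPM (counts scaled to library size) and EPCAM at 215 CPM in NC, although the colon marker VIL1 was at 0.518 CPM and CDX1 was listed at 0 FPKM in 5 of the 6 libraries. Of 8 epithelial markers tested, 1 was called higher and 3 lower, beside 19.1% and 16.9% of all genes. In a second fit that removed the trend with exonic GC content, described below, 1 was higher and 0 were lower. In that fit 6.0% of all genes were higher and 8.46% lower. Of 11 markers of blood, vessel, stromal and other cells, 7 were in the table, their summed FPKM lay between 1.82 and 2.09 in NC and between 1.53 and 1.87 in RBM47-OE, and COL1A1 at 16 CPM made up most of it. Their part in the results below was not tested.

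Fold changes across all genes followed the GC content of the exons, with a Spearman's rho of -0.63 over 16229 genes, and the 43 genes did so too, with a rho of -0.70. These correlations run across genes that share the same libraries, so no p-value was attached. A second fit therefore removed the trend with GC content from each library (the GC offset), and its values stand beside the calls of metabolic genes. The offset takes out any change that runs along GC content, whatever its origin. Among the 21 called metabolic genes, RBM47-OE replicate 1 was the RBM47-OE library nearest to NC for 20. This library also affected the calls over all genes tested. They went from 3100 higher and 2740 lower to 3864 and 3508 when it was left out.

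In RBM47-OE, 9 of the 43 genes were called higher, 12 lower and 22 in neither direction. Over all genes tested, 19.1% were called higher and 16.9% lower. The median log2 fold change of the 43 was -0.081, against 4e-05 for all genes tested, and the range ran from -0.38 for MDH2 to 0.58 for PDK1. With the GC offset 7 were higher and 7 were lower, beside 6.0% higher and 8.46% lower among all genes, and the median was -0.046. The study's own criteria ask for an unadjusted p under 0.01 together with a fold change over 1.5. In edgeR 18 of the 43 had such a p, but 0 also had the fold change, and in DESeq2 0 met both, whereas 1.51% of all genes were higher and 0.873% lower by these criteria in edgeR. The groups did not overlap in CPM for 12 genes that were higher and 16 that were lower, beside 23.2% and 23.4% of all genes. Without the offset, the share of calls among the 43 was thus close to that of all genes in the higher direction and above it in the lower direction, and with the offset it was above that of all genes in both directions, more so in the higher one.

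With and without the GC offset, 8 of the 43 genes were called in the same direction. Over all genes tested, 6.0% were called higher and 8.46% lower with the offset, so no larger shares can be called in both fits. Of these 8 genes, HK2, PDK1, PDK3, DLD and IDH1 were higher, and CS, DLST and MDH2 were lower. Their 250 bases before the transcription start are printed because these are the calls that both fits share, and because promoters of glycolytic genes carry the binding core of HIF1. The sequences are from RefSeq on GRCh38.p14, 5′ to 3′ along the gene's strand, and 41 of the 43 genes had an entry, OGDH and PFKFB2 being without one. Where a gene had more than 1 window, that nearest to the start of the canonical GENCODE transcript was taken. The distance to that start was 0 bases for the 8 printed genes. It was 3283 bases for PFKM, 1847 for IDH2, 1627 for PGAM1, 747 for GAPDH, 422 for PFKP, 217 for HK1 and 204 for GPI. These windows were kept in the counts of words below. Capitals mark the letters ACGTG and GCGTG on either strand, so that CACGT and CACGC are the same words read from the other strand. The E-box CACGTG holds ACGTG on both strands. The regions are chr2:74833877-74834126 on the plus strand for HK2, chr2:172555840-172556089 on the plus strand for PDK1, chrX:24465036-24465285 on the plus strand for PDK3, chr7:107890933-107891182 on the plus strand for DLD, chr2:208255072-208255321 on the minus strand for IDH1, chr12:56300331-56300580 on the minus strand for CS, chr14:74881666-74881915 on the plus strand for DLST and chr7:76047856-76048105 on the plus strand for MDH2.
HK2: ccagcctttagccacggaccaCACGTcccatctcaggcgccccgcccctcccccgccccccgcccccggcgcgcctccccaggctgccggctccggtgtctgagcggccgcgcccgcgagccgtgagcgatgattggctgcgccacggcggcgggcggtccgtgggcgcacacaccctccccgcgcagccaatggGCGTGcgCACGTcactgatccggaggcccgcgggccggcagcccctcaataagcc
PDK1: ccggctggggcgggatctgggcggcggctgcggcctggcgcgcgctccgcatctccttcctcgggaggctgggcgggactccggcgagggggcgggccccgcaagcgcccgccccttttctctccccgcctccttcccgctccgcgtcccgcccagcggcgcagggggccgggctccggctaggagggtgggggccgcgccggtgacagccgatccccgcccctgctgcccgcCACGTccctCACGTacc
PDK3: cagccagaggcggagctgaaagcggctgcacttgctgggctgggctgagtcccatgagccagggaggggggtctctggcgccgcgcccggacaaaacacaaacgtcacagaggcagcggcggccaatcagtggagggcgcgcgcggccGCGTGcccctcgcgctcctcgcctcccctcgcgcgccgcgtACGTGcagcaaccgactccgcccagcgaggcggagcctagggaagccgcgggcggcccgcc
DLD: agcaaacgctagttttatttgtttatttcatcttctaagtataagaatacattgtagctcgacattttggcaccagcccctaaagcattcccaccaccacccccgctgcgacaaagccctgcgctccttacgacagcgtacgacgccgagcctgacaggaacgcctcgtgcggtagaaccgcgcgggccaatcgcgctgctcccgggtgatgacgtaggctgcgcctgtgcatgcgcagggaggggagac
IDH1: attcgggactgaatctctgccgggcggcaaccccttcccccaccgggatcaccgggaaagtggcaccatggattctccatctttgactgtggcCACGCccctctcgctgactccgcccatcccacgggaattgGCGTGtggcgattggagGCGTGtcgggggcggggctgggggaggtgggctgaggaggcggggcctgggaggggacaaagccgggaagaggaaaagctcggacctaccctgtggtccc
CS: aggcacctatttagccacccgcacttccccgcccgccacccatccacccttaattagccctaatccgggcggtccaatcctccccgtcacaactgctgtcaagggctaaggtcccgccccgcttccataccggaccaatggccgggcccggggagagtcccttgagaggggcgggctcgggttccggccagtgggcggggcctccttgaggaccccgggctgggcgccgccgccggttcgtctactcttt
DLST: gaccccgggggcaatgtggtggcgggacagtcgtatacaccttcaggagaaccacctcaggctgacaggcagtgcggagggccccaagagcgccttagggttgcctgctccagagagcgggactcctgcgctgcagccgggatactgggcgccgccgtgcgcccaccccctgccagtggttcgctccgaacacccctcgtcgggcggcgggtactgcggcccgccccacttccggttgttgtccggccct
MDH2: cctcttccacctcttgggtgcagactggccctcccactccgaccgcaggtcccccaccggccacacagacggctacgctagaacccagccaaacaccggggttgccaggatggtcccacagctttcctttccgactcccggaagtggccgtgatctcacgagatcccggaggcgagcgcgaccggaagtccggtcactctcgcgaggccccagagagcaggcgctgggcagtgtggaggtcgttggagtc

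HK2 held 3 marked words, at 229, 55 and 48 bases before the start, and IDH1 held 3, at 157, 117 and 100 bases. PDK1 held 2, at 17 and 8 bases, and PDK3 held 2, at 102 and 61 bases. DLD, CS, DLST and MDH2 held 0 in these windows. Of the 41 windows, 27 held a word (65.9%), against 58.3% of the windows of 11099 tested genes. By pathway, this was 13 of 19 (68.4%) in glycolysis, 7 of 9 (77.8%) in pyruvate entry and 7 of 13 (53.8%) in the TCA cycle. Of the 8 higher genes with a window, 5 held a word, as did 5 of the 11 lower genes and 17 of the 22 genes that were not called. A match of these letters is a description of the window and no evidence of binding.

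**Figure D1:**
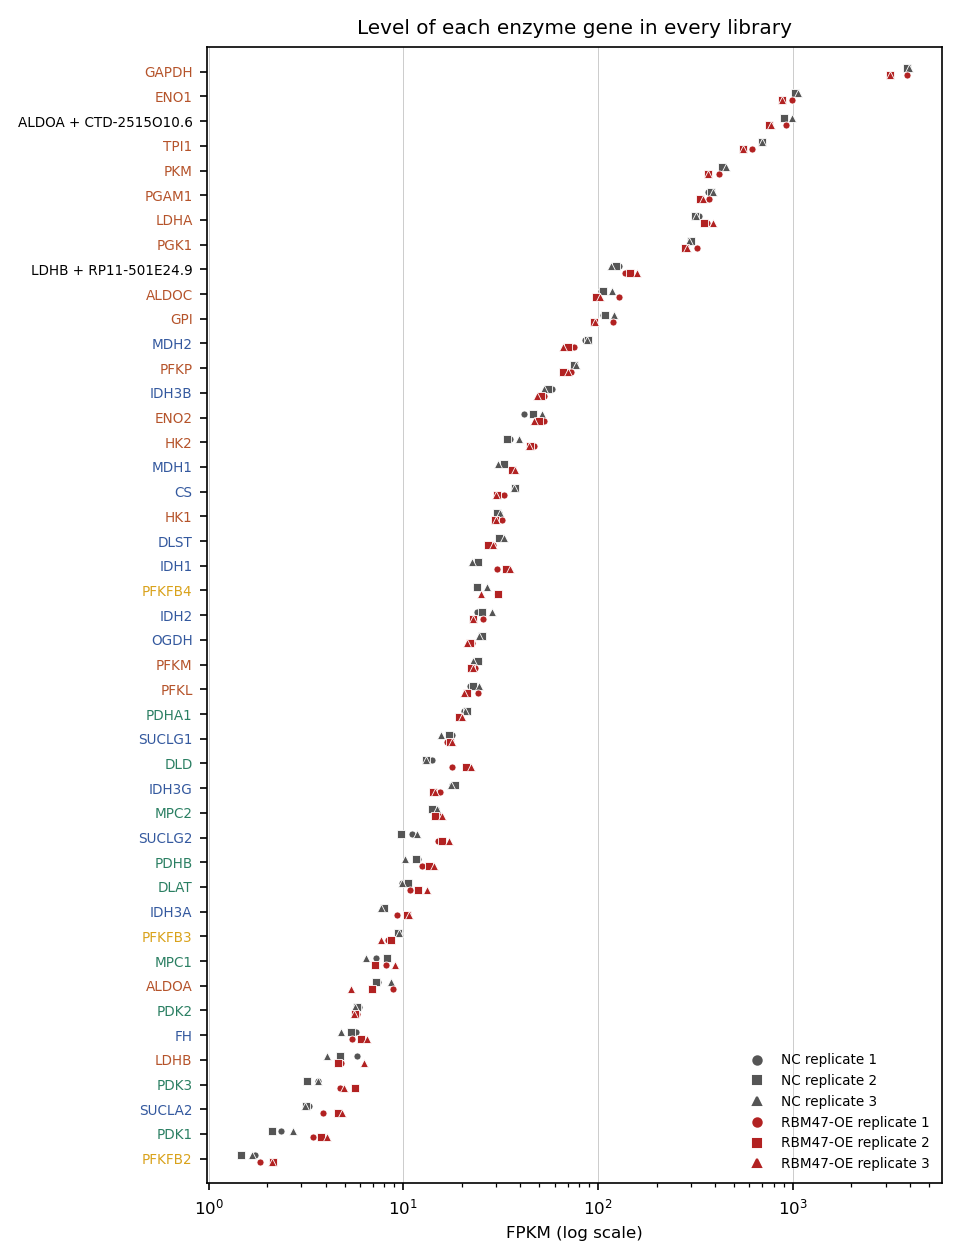
FPKM of each of the 43 genes in every library on a log axis, with NC in grey and RBM47-OE in red, and the symbol of the replicate as in the key. GAPDH, ENO1 and TPI1 stood at the top, PDK1 and PFKFB2 at the bottom, and the rows of ALDOA and LDHB lay far below the sums with the genes that share their exons (black labels).

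The levels of the 43 genes spanned 3 orders of magnitude in FPKM, as the plot of levels shows. All 9 genes with a mean above 100 FPKM belonged to glycolysis, and the glycolysis enzymes together held 3.18%, 3.13% and 3.23% of all counts in the NC libraries. They held 3.17%, 2.75% and 2.75% in RBM47-OE replicates 1, 2 and 3. The TCA cycle genes held 0.179% to 0.185% of the counts in NC and 0.175% to 0.178% in RBM47-OE. The pyruvate entry genes held 0.0512% to 0.0528% in NC and 0.0587% to 0.0657% in RBM47-OE. These are shares of library totals, without the library scaling of the tests and without the GC offset. By them, pyruvate entry lay above NC in each RBM47-OE library and the TCA cycle below it. Glycolysis lay below NC in 2 of the 3 libraries.

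In glycolysis, 2 of the 20 genes were higher, 6 were lower and 12 were not called, beside 19.1% higher and 16.9% lower among all genes tested. The median log2 fold change was -0.14, with 6 values above 0 and 14 below. The lower genes were the phosphofructokinase PFKP, the triose isomerase TPI1, the later enzymes GAPDH, ENO1 and PKM, and the regulator PFKFB3. The higher genes were the hexokinase HK2 and the regulator PFKFB2. In the fit with the GC offset, HK2, PFKFB4 and ENO2 were higher, PGK1 was lower, beside 6.0% higher and 8.46% lower among all genes, and the median was -0.04.

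HK2 (ENSG00000159399, chr2:74834127-74893359, plus strand), which traps glucose in the cell by phosphorylation and sits on the outer mitochondrial membrane, had 35.4, 34.3 and 39.2 FPKM in NC and 46.7, 44.8 and 44.1 FPKM in RBM47-OE. Each RBM47-OE library lay above each NC library. The mean rose from 36.3 ± 2.57 to 45.2 ± 1.37 FPKM (SD, n = 3 each), and the log2 fold change was 0.25 (SE 0.0727, edgeR adjusted p = 0.01). It was 0.34 with the GC offset (edgeR adjusted p = 7.8e-04), and the call was lost without NC replicate 1 (0.23) or NC replicate 2 (0.20). The other hexokinase, HK1, the form most tissues use, had a mean of 30.9 FPKM in NC and 30.5 FPKM in RBM47-OE and was not called.

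PFKFB enzymes make and break a fructose bisphosphate that serves as the signal driving phosphofructokinase. PFKFB3 (ENSG00000170525, chr10:6144934-6254644, plus strand), the form with the strongest tilt toward synthesis, had 9.49, 9.37 and 9.5 FPKM in NC and 8.34, 8.67 and 7.69 FPKM in RBM47-OE. All 3 RBM47-OE libraries were lower, at a log2 fold change of -0.27 (SE 0.0733, edgeR adjusted p = 0.0055), but the value was -0.10 with the GC offset (edgeR adjusted p = 0.27). PFKFB2 (ENSG00000123836, chr1:207034366-207081024, plus strand) had 1.74, 1.46 and 1.67 FPKM in NC and 1.83, 2.14 and 2.12 FPKM in RBM47-OE, the lowest mean level among the 43 genes. Its groups did not overlap, although RBM47-OE replicate 1 came close to NC replicate 1. On the log2 scale it was higher by 0.25 (SE 0.0985, edgeR adjusted p = 0.046), and 0.076 with the GC offset (edgeR adjusted p = 0.6). The call of PFKFB2 was also lost without NC replicate 2 (0.18), NC replicate 3 (0.27), RBM47-OE replicate 2 (0.23) or RBM47-OE replicate 3 (0.22). PFKFB4 went the other way from PFKFB3, at 0.14 without the offset (edgeR adjusted p = 0.18) and 0.30 with it (edgeR adjusted p = 0.003), and its groups overlapped because RBM47-OE replicate 3 (25.2 FPKM) lay below NC replicate 3 (26.9 FPKM).

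Phosphofructokinase commits sugar to glycolysis, and its platelet form PFKP was the most abundant of the 3 forms. PFKP (ENSG00000067057, chr10:3066333-3137718, plus strand) had 76.3, 75.6 and 77 FPKM in NC and 72.5, 66.5 and 70.2 FPKM in RBM47-OE. The RBM47-OE libraries were lower without overlap, at a log2 fold change of -0.20 (SE 0.0725, edgeR adjusted p = 0.033). This call rested on a thin margin, since it was kept in 1 of the 6 fits that left out a library, the one without RBM47-OE replicate 1, with values from -0.24 to -0.15 over the 6. After the GC offset it was -0.046 (edgeR adjusted p = 0.67). The liver form PFKL and the muscle form PFKM both had a log2 fold change of -0.14 and were not called.

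TPI1 (ENSG00000111669, chr12:6867119-6870948, plus strand), which interconverts the triose phosphates, had 700, 695 and 698 FPKM in NC and 621, 556 and 556 FPKM in RBM47-OE. The NC libraries differed by 2.31 FPKM (SD), and each RBM47-OE library was far below them. On the log2 scale the change was -0.34 (SE 0.0778, edgeR adjusted p = 0.0014), and the call was kept when any 1 library was left out. The GC offset brought it to -0.16 (edgeR adjusted p = 0.093).

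GAPDH (ENSG00000111640, chr12:6534512-6538374, plus strand), the NADH-forming dehydrogenase of glycolysis and a common reference gene, had 3874, 3864 and 3940 FPKM in NC and 3881, 3180 and 3173 FPKM in RBM47-OE. RBM47-OE replicates 2 and 3 were low, whereas replicate 1 was within the NC range in FPKM and just below it in TMM-scaled CPM. GAPDH had a log2 fold change of -0.26 (SE 0.0911, edgeR adjusted p = 0.028), and -0.063 with the GC offset (edgeR adjusted p = 0.65). Of the 6 fits that left out a library, only that without RBM47-OE replicate 1 kept the call, and the values ran from -0.37 to -0.19. An antisense RNA, RP5-940J5.9, covers 422 exonic bases of GAPDH (17.6%) and held 4856 to 8343 counts per library, and the strand setting of the counting is not given in the sources used here.

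ENO1 and PKM, which form phosphoenolpyruvate and turn it into pyruvate with a gain of ATP, showed the same picture. ENO1 (ENSG00000074800, chr1:8861000-8879190, minus strand) had 1025, 1030 and 1059 FPKM in NC and 997, 884 and 880 FPKM in RBM47-OE. PKM (ENSG00000067225, chr15:72199029-72231819, minus strand) had 434, 436 and 452 FPKM in NC and 419, 368 and 368 FPKM in RBM47-OE. For both genes the groups did not overlap, and RBM47-OE replicate 1 was the nearest to NC. The log2 fold change was -0.24 for ENO1 (SE 0.0827, edgeR adjusted p = 0.023) and -0.26 for PKM (SE 0.082, edgeR adjusted p = 0.014). After the GC offset ENO1 was at -0.10 and PKM at -0.12 (edgeR adjusted p = 0.41 and 0.28). Each call was lost without NC replicate 1, 2 or 3 or RBM47-OE replicate 3, at -0.25, -0.25, -0.23 and -0.21 for ENO1 and at -0.27, -0.27, -0.25 and -0.23 for PKM.

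Leaving out RBM47-OE replicate 1 brought the number of lower glycolysis genes from 6 to 13, and leaving out any other library brought it to between 2 and 4. Lower calls over all genes tested moved the same way, from 2740 to 3508 without RBM47-OE replicate 1. They were between 1675 and 2225 without any other library. The glycolysis genes gained without RBM47-OE replicate 1 were GPI (-0.30), PFKL (-0.23), PFKM (-0.17), ALDOA (-0.42), ALDOC (-0.21), PGK1 (-0.16) and PGAM1 (-0.23).

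The remaining glycolysis genes had log2 fold changes between -0.21 and 0.14. PGK1, the first ATP-forming kinase of the pathway, had 302, 299 and 295 FPKM in NC and 322, 281 and 285 FPKM in RBM47-OE, with RBM47-OE on both sides of NC. Its log2 fold change was -0.081 (edgeR adjusted p = 0.45) without the GC offset and -0.26 (edgeR adjusted p = 0.03) with it. ENO2, the neuronal enolase, had 41.7, 46.3 and 51.5 FPKM in NC and 53.1, 49.9 and 47.1 FPKM in RBM47-OE, and its value of 0.036 (edgeR adjusted p = 0.76) became 0.21 with the GC offset (edgeR adjusted p = 0.026). LDHA, which makes lactate from pyruvate, had 329, 316 and 318 FPKM in NC and 365, 352 and 392 FPKM in RBM47-OE, yet on the TMM-scaled counts the groups overlapped and the log2 fold change was 0.13 (edgeR adjusted p = 0.19). Per mapped fragment, RBM47-OE values stood somewhat higher than after TMM scaling, since library totals in place of TMM moved the median of all genes to 0.062 on the log2 scale. GPI, ALDOC, PGAM1 and HK1 were at -0.18, -0.062, -0.17 and -0.089.

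ALDOA and LDHB need care, because their rows held few reads. The muscle and ubiquitous aldolase ALDOA (ENSG00000149925, chr16:30064164-30070457, plus strand) had 7.45, 7.24 and 8.61 FPKM in NC and 8.82, 6.88 and 5.41 FPKM in RBM47-OE, from 665 to 1259 counts. A gene on the same strand, CTD-2515O10.6 (ENSG00000285043), shares 1639 of the 3829 exonic bases of ALDOA (42.8%) and held 81750 to 119465 counts, so the ALDOA row took 0.807% to 1.1% of the reads of both. The heart lactate dehydrogenase LDHB (ENSG00000111716, chr12:21635342-21757857, minus strand) had 5.77, 4.73 and 4.06 FPKM in NC and 4.79, 4.64 and 6.32 FPKM in RBM47-OE. A same-strand gene, ENSG00000285854, shares 997 of its 2983 exonic bases (33.4%) and held 19315 to 25391 counts, against 404 to 605 on the LDHB row. How the counting divided reads between such genes is not given in the sources used here.

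With the rows summed, the ALDOA sum was 906, 907 and 996 FPKM in NC and 922, 758 and 773 FPKM in RBM47-OE. The LDHB sum was 129, 124 and 116 FPKM in NC and 137, 146 and 159 FPKM in RBM47-OE. These sums take in all reads of the other gene, so they are not levels of ALDOA or LDHB alone. The shared bases are 1639 of 3318 exonic bases in CTD-2515O10.6 and 997 of 5157 in ENSG00000285854. RBM47-OE replicate 1 lay within NC for the ALDOA sum, and the LDHB sum was higher in FPKM in every RBM47-OE library. The summed ALDOA had a log2 fold change of -0.26 (SE 0.0877, edgeR adjusted p = 0.02), which was -0.088 with the GC offset (edgeR adjusted p = 0.48). The summed LDHB had 0.19 (SE 0.0751, edgeR adjusted p = 0.051), which was 0.021 with the offset (edgeR adjusted p = 0.87). The separate rows gave -0.21 and 0.042 and were not called. Processed copies of GAPDH, PGK1, TPI1, ENO1, PGAM1 and LDHA exist elsewhere in the genome, and since only uniquely mapped reads were counted, these rows are uncertain to that extent. In GENCODE 44, 7 of the 43 genes share exonic bases with a gene on the same strand and 22 with one on the opposite strand, 8 of these over more than 10% of their bases.

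**Figure D2:**
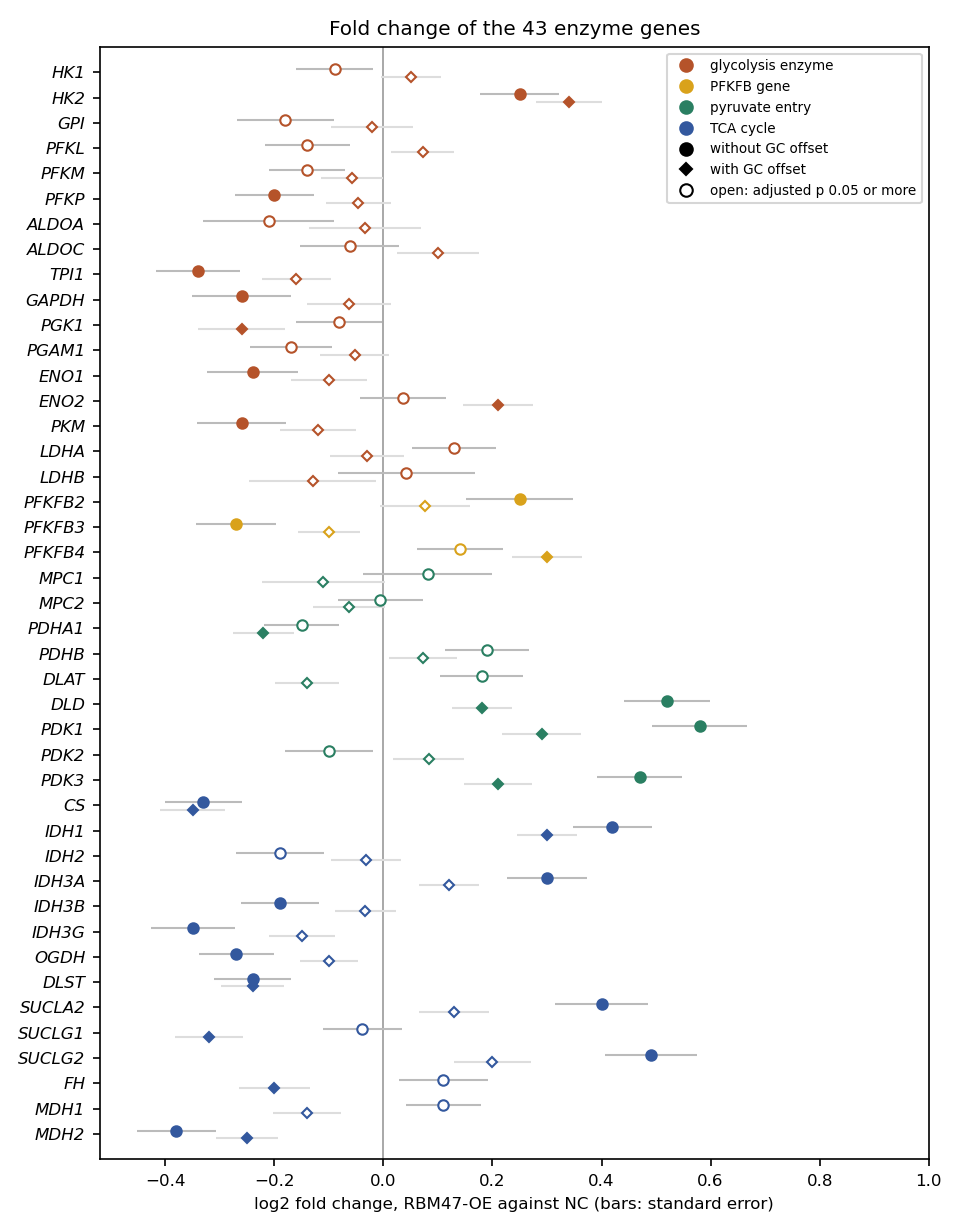
Log2 fold change of each gene with its standard error in edgeR, as circles without and diamonds with the GC offset, filled at an adjusted p under 0.05. Of the 20 glycolysis genes, 14 lie left of 0 without the offset and 13 with it, while PDK1, DLD, PDK3 and IDH1 stay to the right and CS, DLST and MDH2 to the left.

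In pyruvate entry, 3 of the 9 genes were higher, 0 were lower and 6 were not called in edgeR's quasi-likelihood test, beside 19.1% higher and 16.9% lower among all genes, with a median log2 fold change of 0.18. At an unadjusted p under 0.05, 1 gene was lower, and DESeq2 called 0 lower. The higher genes were the kinases PDK1 and PDK3, which switch the pyruvate dehydrogenase complex off, and DLD, its dihydrolipoamide dehydrogenase subunit, which also serves other dehydrogenase complexes. The same 3 genes were higher with the GC offset, PDHA1 was lower, and the median was 0.072, where 6.0% of all genes were higher and 8.46% lower.

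PDK1 (ENSG00000152256, chr2:172555373-172608669, plus strand) had 2.36, 2.13 and 2.71 FPKM in NC and 3.44, 3.76 and 4.08 FPKM in RBM47-OE. Every RBM47-OE library lay well above every NC library. The mean rose from 2.4 ± 0.292 to 3.76 ± 0.32 FPKM (SD, n = 3 each), and the log2 fold change of 0.58 (SE 0.087, edgeR adjusted p = 4.9e-05) was the largest rise among the 43 genes in that fit. It was 0.29 with the GC offset (edgeR adjusted p = 0.0084) and between 0.49 and 0.67 when 1 library was left out.

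PDK3 (ENSG00000067992, chrX:24465244-24550466, plus strand), another kinase of this family, had 3.65, 3.21 and 3.66 FPKM in NC and 4.73, 5.62 and 4.97 FPKM in RBM47-OE. Here RBM47-OE replicate 2 was the highest, and the groups did not overlap. PDK3 had a log2 fold change of 0.47 (SE 0.0779, edgeR adjusted p = 1.1e-04), and 0.21 with the GC offset (edgeR adjusted p = 0.027). PDK2, the form found in most tissues, had 5.95, 5.8 and 5.67 FPKM in NC and 5.81, 5.65 and 5.58 FPKM in RBM47-OE and was not called (-0.10, edgeR adjusted p = 0.34). PDK2 shares 38.6% of its exonic bases with SAMD14 on the opposite strand.

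DLD (ENSG00000091140, chr7:107891162-107931730, plus strand) had 14.1, 13.1 and 13.1 FPKM in NC and 17.7, 20.9 and 22.4 FPKM in RBM47-OE. RBM47-OE replicate 1 was the lowest of its group but lay above all NC libraries. DLD had a log2 fold change of 0.52 (SE 0.0782, edgeR adjusted p = 4.9e-05), and 0.18 with the GC offset (edgeR adjusted p = 0.034). Adding the replicate number as a block to the offset left DLD at 0.18 but without a call (edgeR adjusted p = 0.051).

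The catalytic subunits did not rise with DLD beyond the threshold. PDHB, the beta subunit of pyruvate dehydrogenase, had 11.9, 11.6 and 10.2 FPKM in NC and 12.5, 13.5 and 14.4 FPKM in RBM47-OE, a log2 fold change of 0.19 (edgeR adjusted p = 0.062). DLAT, the acetyltransferase core, had 9.89, 10.6 and 9.84 FPKM in NC and 10.8, 11.9 and 13.2 FPKM in RBM47-OE, a log2 fold change of 0.18 (edgeR adjusted p = 0.071). Both were without overlap and were called without RBM47-OE replicate 1, at 0.23 and 0.24. With the GC offset PDHB was at 0.072 and DLAT at -0.14, and neither was called (edgeR adjusted p = 0.5 and 0.12). PDHA1, the alpha subunit that the PDK kinases phosphorylate, had 20.4, 21.3 and 20.7 FPKM in NC and 19.6, 19.4 and 20.1 FPKM in RBM47-OE. It lay lower in each RBM47-OE library, at -0.15 (edgeR adjusted p = 0.094) without the GC offset and at -0.22 (SE 0.0554, edgeR adjusted p = 0.0093) with it. The mitochondrial pyruvate carrier genes MPC1 and MPC2 were at 0.081 and -0.0055, with overlapping groups.

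In the TCA cycle, 4 of the 14 genes were higher, 6 were lower and 4 were not called, beside 19.1% higher and 16.9% lower among all genes, with a median log2 fold change of -0.12. Without the GC offset, subunits of a single enzyme moved apart. IDH3A was higher while IDH3B and IDH3G, the other subunits of the NAD-dependent isocitrate dehydrogenase, were lower. SUCLA2 and SUCLG2, the alternative beta subunits of succinyl-CoA synthetase, were higher, and their common alpha subunit SUCLG1 was not called. OGDH and DLST of the oxoglutarate dehydrogenase complex were lower, and DLD, which they share with pyruvate dehydrogenase, was higher. When the offset was applied the cytosolic form IDH1 was higher, and CS, MDH2, DLST, SUCLG1 and FH were lower, beside 6.0% higher and 8.46% lower among all genes. IDH3A, IDH3B, IDH3G, SUCLA2, SUCLG2 and OGDH were not called with it, so the split within IDH3 did not pass the threshold. DLST stayed lower and DLD higher.

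CS (ENSG00000062485, chr12:56271699-56300391, minus strand), citrate synthase, the entry step of the cycle, had 37, 37.3 and 37 FPKM in NC and 32.9, 30.3 and 29.8 FPKM in RBM47-OE. The NC libraries were nearly equal and each RBM47-OE library was lower. Its log2 fold change was -0.33 (SE 0.0711, edgeR adjusted p = 9.7e-04) without the GC offset and -0.35 (edgeR adjusted p = 5.9e-04) with it, and between -0.38 and -0.30 when 1 library was left out.

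The isocitrate dehydrogenases differed by form. IDH1 (ENSG00000138413, chr2:208236229-208266074, minus strand), the cytosolic NADP-dependent form, had 24.1, 24.1 and 22.5 FPKM in NC and 30.4, 33.9 and 35.5 FPKM in RBM47-OE. All RBM47-OE libraries were higher, at a log2 fold change of 0.42 (SE 0.072, edgeR adjusted p = 1.4e-04), and of 0.30 with the GC offset (edgeR adjusted p = 0.0012). IDH2, its mitochondrial counterpart, had 23.8, 25.5 and 28.4 FPKM in NC and 25.8, 22.7 and 22.8 FPKM in RBM47-OE, with overlapping groups and a value of -0.19 (edgeR adjusted p = 0.063).

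IDH3A (ENSG00000166411, chr15:78131498-78171945, plus strand), the catalytic subunit, had 7.93, 7.96 and 7.67 FPKM in NC and 9.25, 10.5 and 10.7 FPKM in RBM47-OE. IDH3B (ENSG00000101365, chr20:2658395-2664219, minus strand) had 58, 55.3 and 53 FPKM in NC and 52.8, 51 and 48.9 FPKM in RBM47-OE. IDH3G (ENSG00000067829, chrX:153785766-153794512, minus strand) had 17.9, 18.5 and 17.5 FPKM in NC and 15.5, 14.2 and 14.6 FPKM in RBM47-OE. None of the 3 genes had overlapping groups, but IDH3B in RBM47-OE replicate 1 lay next to NC replicate 3. The log2 fold changes were 0.30 for IDH3A (SE 0.0732, edgeR adjusted p = 0.0027), -0.19 for IDH3B (SE 0.071, edgeR adjusted p = 0.035) and -0.35 for IDH3G (SE 0.077, edgeR adjusted p = 0.0011). Under the GC offset they were 0.12, -0.033 and -0.15, and none was called (edgeR adjusted p = 0.16, 0.76 and 0.11). The exonic GC content was 43.2% for IDH3A, 55.1% for IDH3B and 60.4% for IDH3G. Without 1 library the IDH3B value ran from -0.23 to -0.16 and was called only without RBM47-OE replicate 1. IDH3A shares 38.2% of its exonic bases with ACSBG1 on the opposite strand.

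OGDH (ENSG00000105953, chr7:44606572-44709066, plus strand), the decarboxylating subunit of the oxoglutarate dehydrogenase complex, had 25.1, 25.4 and 24.6 FPKM in NC and 22.5, 21.9 and 21.3 FPKM in RBM47-OE. DLST (ENSG00000119689, chr14:74881891-74903743, plus strand), the succinyltransferase core of the same complex, had 32.1, 31 and 32.8 FPKM in NC and 29, 27.4 and 28.8 FPKM in RBM47-OE. Both were lower in each RBM47-OE library. The log2 fold change of OGDH was -0.27 (SE 0.0688, edgeR adjusted p = 0.004), and -0.10 with the GC offset (edgeR adjusted p = 0.24). That of DLST was -0.24 in both fits (SE 0.07, edgeR adjusted p = 0.0088, and 0.0066 with the offset), and its call was lost without NC replicate 1 or 3, at -0.23 each.

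SUCLA2 (ENSG00000136143, chr13:47745736-48037968, minus strand), the ATP-forming beta subunit, had 3.27, 3.17 and 3.12 FPKM in NC and 3.85, 4.62 and 4.83 FPKM in RBM47-OE. SUCLG2 (ENSG00000172340, chr3:67360460-67654612, minus strand), the GTP-forming one, had 11.1, 9.7 and 11.7 FPKM in NC and 15, 15.8 and 17.2 FPKM in RBM47-OE. Each gene was higher in each RBM47-OE library. The log2 fold changes were 0.40 (SE 0.086, edgeR adjusted p = 8.8e-04) and 0.49 (SE 0.0845, edgeR adjusted p = 1.4e-04). Under the GC offset they were 0.13 and 0.20 (edgeR adjusted p = 0.21 and 0.057). SUCLG1 had 17.7, 17.1 and 15.7 FPKM in NC and 16.7, 17.3 and 17.7 FPKM in RBM47-OE, at -0.039 (edgeR adjusted p = 0.72) without the offset and -0.32 (edgeR adjusted p = 0.0017) with it.

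MDH2 (ENSG00000146701, chr7:76048051-76067508, plus strand), the mitochondrial malate dehydrogenase that closes the cycle, had 86.2, 88.5 and 88.2 FPKM in NC and 75.7, 70.4 and 66.5 FPKM in RBM47-OE. It was the most abundant TCA gene of the 14 per length, and all RBM47-OE libraries were lower. MDH2 had a log2 fold change of -0.38 (SE 0.0726, edgeR adjusted p = 3.8e-04), and -0.25 with the GC offset (edgeR adjusted p = 0.0054). The cytosolic form MDH1 had 33, 33 and 30.5 FPKM in NC and 36.2, 36.1 and 37.5 FPKM in RBM47-OE, at 0.11 (edgeR adjusted p = 0.21) and, with the offset, -0.14 (edgeR adjusted p = 0.15). FH, fumarase, was at 0.11 (edgeR adjusted p = 0.31) and, with the offset, -0.20 (edgeR adjusted p = 0.042).

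**Figure D3:**
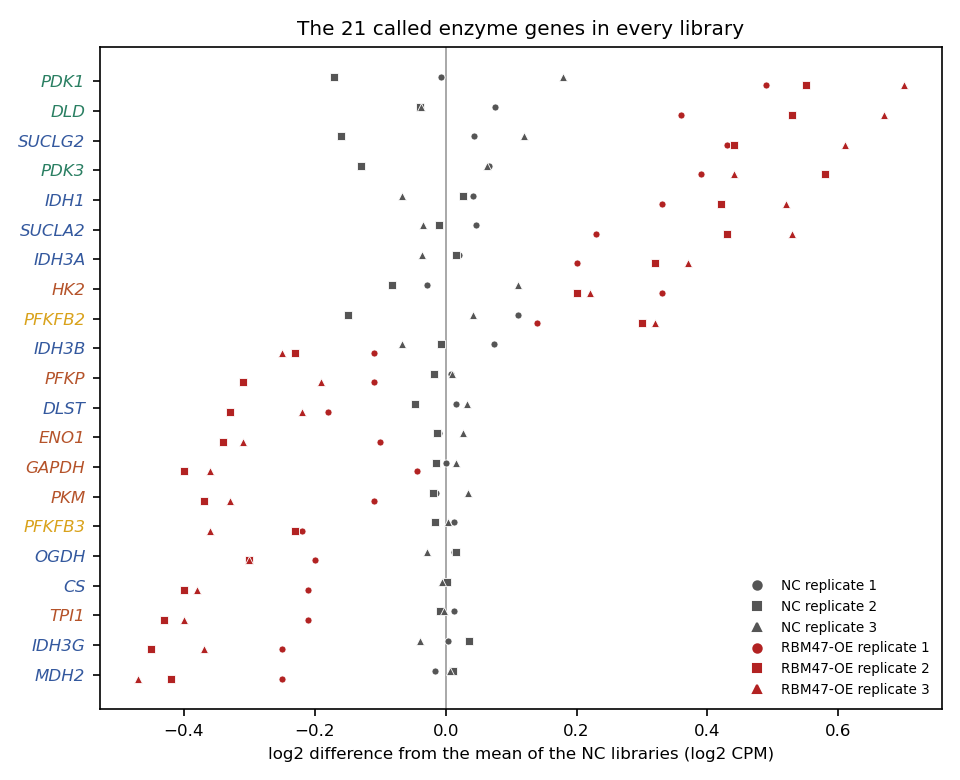
Log2 difference of TMM-scaled CPM from the mean of the NC libraries for the 21 called genes, with NC in grey and RBM47-OE in red. No called gene has overlapping groups, and RBM47-OE replicate 1 (red circles) is nearest to NC in 20 of the 21, HK2 being the exception.

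Higher and lower genes differed in base composition. The median share of G and C in the exons was 40.9% for the 9 higher genes (37.4% to 51.1%), 54.9% for the 12 lower genes (47.2% to 60.4%), and 48.3% for the 22 others (38.9% to 64.6%). Of the 9 metabolic genes under 42% GC, 5 were higher, and over all genes in that window 56% were higher. Of the 17 at 54% or above, 9 were lower, beside 34.8% of all genes there. Between 50% and 54%, 1 of the 5 was higher, HK2 at 51.1%, where 2.03% of all genes were higher, and 1 was lower. From 46% to 50%, CS and DLST were lower among 3 genes, where 11% of all genes were lower. Once the offset was applied, rho between GC content and the log2 fold change was 0.021 over the 43 genes and -0.042 over all genes. The part of GC content in the single calls was not tested beyond this offset.

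**Figure D4:**
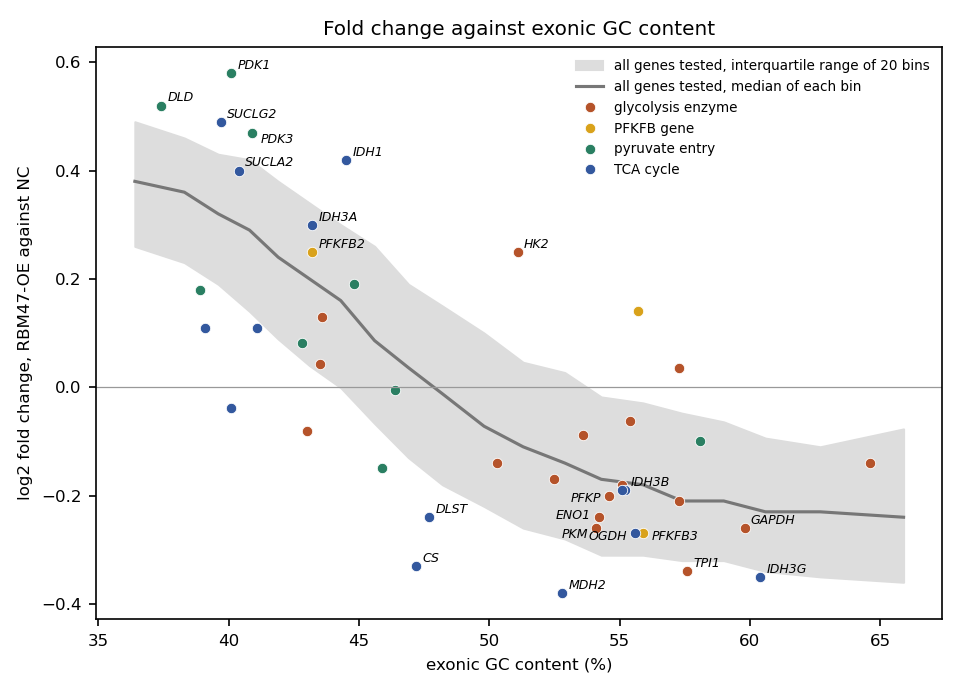
Log2 fold change in edgeR without the GC offset against exonic GC content, with called genes labelled, and the median (line) and interquartile range (band) of all genes tested in 20 bins of GC content. The points fall with GC content as the band does, HK2, PDK1 and IDH1 are among those above it, and CS, DLST and MDH2 lie below it.

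Ratios between isozymes or subunits within a library do not depend on how libraries are scaled, and 13 were compared on the counts. The groups did not overlap for 7 of them, 3 higher and 4 lower in RBM47-OE. Among all genes tested, taken singly, 23.2% were higher and 23.4% lower without overlap. No such share is given here for other pairs of genes. For each of the 7 an exact two-sided permutation test over libraries gives p = 0.10 (0.19 after Benjamini-Hochberg adjustment over the 13), and 0.10 is the smallest value that 3 libraries against 3 allow, so this test cannot pass 0.05 here. The ratio of IDH2 to IDH1 counts was 0.586, 0.627 and 0.749 in NC and 0.504, 0.398 and 0.382 in RBM47-OE, a log2 difference of -0.61 (SE 0.164). It was lower in every RBM47-OE library, and IDH1 had more counts than IDH2 in both groups. For MDH2 against MDH1 it was 1.9, 1.96 and 2.11 in NC and 1.53, 1.42 and 1.29 in RBM47-OE, a difference of -0.49 (SE 0.0827). The numerator and denominator of these ratios differ in GC content, 55.2% against 44.5% for IDH2 and IDH1 and 52.8% against 41.1% for MDH2 and MDH1.

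Some pairs with close GC content had groups without overlap, and others, given at the end of this paragraph, overlapped. HK2 was higher relative to HK1 (log2 difference 0.34, SE 0.0495). HK2 counts per HK1 count were 1.07, 1.06 and 1.18 in NC and 1.37, 1.42 and 1.39 in RBM47-OE. PFKFB3 was lower relative to PFKFB4, at 0.402, 0.391 and 0.354 in NC and 0.277, 0.284 and 0.305 in RBM47-OE (-0.41, SE 0.0703), with GC contents of 55.9% and 55.7%. ENO2 counts per ENO1 count were 0.0334, 0.0369 and 0.04 in NC and 0.0437, 0.0464 and 0.044 in RBM47-OE (0.29, SE 0.0793). In these pairs RBM47-OE replicate 1 stood with its own group. The ratios that follow were not limited to pairs with close GC content. IDH3A (43.2% GC) against IDH3B (55.1% GC) was higher by 0.49 without overlap. PFKP against PFKM was at -0.065, its groups apart by a hair, with 3.32 as the lowest ratio in NC and 3.31 as the highest in RBM47-OE. ALDOC against the summed ALDOA was higher by 0.20 without overlap, but against the ALDOA row alone its groups overlapped. The groups also overlapped for PFKP to PFKL, LDHB to LDHA with either LDHB value, MPC2 to MPC1, PDK1 to PDK3 and SUCLA2 to SUCLG2. Several pairs with overlap were close in GC content, at 43.5% and 43.6% for LDHB and LDHA and 40.1% and 40.9% for PDK1 and PDK3. SUCLA2 and SUCLG2 had 40.4% and 39.7%, and ALDOC and ALDOA 55.4% and 57.3%.

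**Figure D5:**
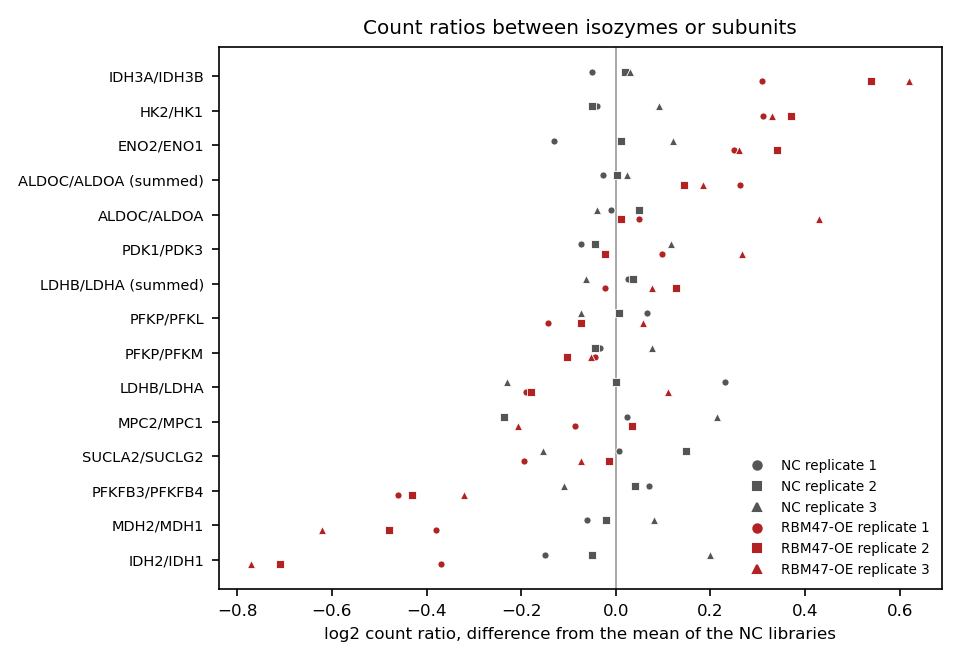
Log2 ratio of counts between isozymes or subunits in every library, as the difference from the mean of the NC libraries, with NC in grey and RBM47-OE in red. IDH3A/IDH3B, HK2/HK1 and ENO2/ENO1 are higher in each RBM47-OE library, and PFKFB3/PFKFB4, MDH2/MDH1 and IDH2/IDH1 are lower.

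Other genes of the same pathways, taken from textbook lists, were read alongside. Of 16 further glycolysis and pyruvate genes tested, 5 were higher and 1 was lower, beside 19.1% and 16.9% of all genes. With the GC offset 1 was higher and 0 were lower, beside 6.0% and 8.46% of all genes. The pyruvate dehydrogenase kinase PDK4 had a log2 fold change of 0.52 (edgeR adjusted p = 0.015), the phosphoglucomutase PGM2 0.44 (edgeR adjusted p = 3.3e-04) and PDHX, which anchors DLD in the pyruvate dehydrogenase complex, 0.41 (edgeR adjusted p = 6.0e-04). PDHX was the gene that stayed higher with the offset, at 0.25 (edgeR adjusted p = 0.012), whereas PDK4 was at 0.18 and PGM2 at 0.14 (edgeR adjusted p = 0.49 and 0.13). The muscle enolase ENO3 was lower, at -0.22 (edgeR adjusted p = 0.026), and at -0.044 with the offset (edgeR adjusted p = 0.67). PDK4 was scarce, with 0.59 to 0.65 FPKM in NC and 0.84 to 1.01 FPKM in RBM47-OE, so that 3 of the 4 PDK genes were higher without the offset and 2 of them with it. The phosphatases that reverse the action of these kinases were higher as well, PDP1 at 0.35 (edgeR adjusted p = 6.6e-04) and PDP2 at 0.21 (edgeR adjusted p = 0.043), and neither was called with the offset (0.14 and 0.16, edgeR adjusted p = 0.12 and 0.11). PDP1 had a mean of 98.3 FPKM in NC and 132 FPKM in RBM47-OE, and PDP2 3.58 and 4.36 FPKM.

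Of 18 further TCA cycle genes tested, 6 were higher and 5 lower, beside 19.1% and 16.9% of all genes. With the GC offset 2 were higher and 3 lower, beside 6.0% and 8.46% of all genes. Higher were SDHAF3, an assembly factor of succinate dehydrogenase, at 0.56 (edgeR adjusted p = 5.3e-04), the mitochondrial malic enzyme ME2 at 0.40 (edgeR adjusted p = 3.4e-04) and SDHD, a membrane subunit of succinate dehydrogenase, at 0.37 (edgeR adjusted p = 5.4e-04). Lower were the aspartate aminotransferases GOT2 at -0.35 (edgeR adjusted p = 6.7e-04) and GOT1 at -0.30 (edgeR adjusted p = 0.0038), partners of the malate dehydrogenases in the malate-aspartate shuttle. Under the GC offset GOT2 and GOT1 were at -0.38 and -0.30 and still called (edgeR adjusted p = 3.5e-04 and 0.0038), SDHD was at 0.25 (edgeR adjusted p = 0.0069), and ME2 and SDHAF3 were not called.

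Of 12 glucose and lactate transport genes tested, 5 were higher and 2 lower, beside 19.1% and 16.9% of all genes. With the GC offset 2 were higher and 1 lower, beside 6.0% and 8.46% of all genes. SLC2A1, the widely expressed glucose transporter, had 72.2, 69.1 and 84.8 FPKM in NC and 80.8, 70.5 and 75.1 FPKM in RBM47-OE and was not called (-0.068, edgeR adjusted p = 0.56). SLC2A12 was higher at 0.64 (edgeR adjusted p = 2.2e-04), SLC16A7, a monocarboxylate carrier, at 0.52 (edgeR adjusted p = 0.0022) and SLC2A13 at 0.46 (edgeR adjusted p = 0.0031), each under 2 FPKM. With the offset SLC2A12 was at 0.35 and called (edgeR adjusted p = 0.041), and SLC16A7 and SLC2A13 were at 0.15 and 0.12 and were not (edgeR adjusted p = 0.42 and 0.47). SLC16A1, a carrier of lactate and pyruvate, had 11.5, 11 and 10.7 FPKM in NC and 12.3, 15.3 and 17.4 FPKM in RBM47-OE, at 0.36 (edgeR adjusted p = 0.0023), and was also higher with the offset, at 0.21 (edgeR adjusted p = 0.047). BSG, the chaperone of the lactate carriers, was lower at -0.49 (edgeR adjusted p = 1.1e-04), and -0.27 with the offset (edgeR adjusted p = 0.0052). The lactate exporter SLC16A3 was lower at -0.22 (edgeR adjusted p = 0.033), and at -0.0013 with the offset (edgeR adjusted p = 0.99).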

How the data were processed

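The series holds RNA-seq of HCT116 cells, 3 NC and 3 RBM47-OE libraries grouped by the labels, and all 6 were used. The authors discarded reads with more than 2 ambiguous bases, trimmed the rest with FASTX-Toolkit, mapped them to GRCh38 by HISAT2 and deposited the count of uniquely mapped reads per gene, without normalization. The deposited FPKM values were computed by the authors from the same reads, scaled to gene length and mapped fragments, and were used for levels only. The submitters' processing notes also list bcl2fastq, FastQC and DESeq2. The counting tool, the annotation release and the strand setting are not given in the sources used here, and 0 columns were left unmapped.

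Counts were tested with edgeR 4.0.16 in R 4.3.3 (filterByExpr with a minimum count of 10 and a minimum total of 15, TMM factors, quasi-likelihood F-test, no covariate besides condition), with Benjamini-Hochberg adjustment over 16260 genes and a threshold of 0.05. The deposited table has 28491 genes, of which 28244 have FPKM. CPM values used TMM library sizes, and groups were said not to overlap on log2 CPM with a prior count of 2. The GC offset was a loess curve (span 0.3) of each library's log2 CPM difference from the mean of all libraries against exonic GC content, from GENCODE release 44 on GRCh38. Coordinates came from the same release, which matched all 43 genes by identifier. Standard errors were derived from the log2 fold change and the root of its F statistic. Isozyme ratios of counts were compared by the exact two-sided permutation test over libraries (SciPy 1.17.1).

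The 43 genes, the further lists (glycolysis and pyruvate, TCA cycle, transport, pentose phosphate, HIF1, epithelial and other cell types), the GC offset and the ratios were chosen with earlier results of these data known. Full statistics were given for up to 5 called genes per direction in glycolysis, pyruvate entry and the TCA cycle by size of the log2 fold change and for called genes of the isozyme pairs, and in the other lists up to 3 called genes per direction were named. SLC2A1, SLC16A1, PDP1, PDP2, DLD with the block and the genes called in a single alternative were named after their values were seen. Alternatives were RLE factors, library totals, DESeq2 1.42.0, no filter, the replicate number as a block, the GC offset with and without that block, and each library left out. The sum of overlapping genes was added after seeing the data. The edgeR and DESeq2 steps were tested on simulated data.

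Replicate numbers are shared by NC and RBM47-OE, but the deviations of same-numbered libraries from their group means correlated at -0.0596, -0.0149 and -0.0159 across genes, and no source ties the numbers to a batch, so the libraries were not treated as paired. Total counts were 26792409 to 35477983 per library, and counting error is covered by the model's spread. Values of some single genes of the further lists are not reported here.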

Additional observations from a re-analysis of the deposited data

How the results depend on the processing

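The numbers do not pair the libraries, and with the replicate number as a replicate block 1 glycolysis gene was higher and 3 were lower (2 and 6 without it), while pyruvate entry and the TCA cycle stayed within 1.5 times of their counts. Over all genes the block gave 2957 higher and 2510 lower calls, against 3100 and 2740. Without the filter 1 glycolysis gene was higher. With library totals 5 pyruvate entry genes were higher, and 8 genes of the other lists were lower (14 with TMM). Library totals gave 3693 higher and 1889 lower calls over all genes. With the GC offset, 1 glycolysis gene and 1 pyruvate entry gene were lower, 1 TCA gene was higher, and 18 genes of the other lists were higher and 9 lower (28 and 14 without it). With the GC offset and the replicate block together, these were 1, 1, 2, 19 and 8, and with the overlapping genes summed and the GC offset 1 glycolysis gene was lower. Leaving out 1 library at a time gave 0 to 2 higher and 2 to 13 lower glycolysis genes, 3 to 5 higher and 0 to 1 lower pyruvate entry genes, and 7 to 19 lower genes of the other lists. The counts of 13, 5, 1 and 19 came without RBM47-OE replicate 1, the 0 without NC replicate 2, and the 7 without NC replicate 2 or 3. Over all genes, these fits gave 2090 to 3864 higher and 1675 to 3508 lower calls. Both maxima came without RBM47-OE replicate 1, and both minima without NC replicate 2.

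Of the 21 called genes, 13 kept their call whichever library was left out, and 7 kept it in every other setting that used all libraries (HK2, PDK1, PDK3, CS, IDH1, DLST and MDH2). The matching shares among all called genes are not given here. The log2 fold change changed sign with the GC offset for 10 genes, none of them called without it. With the offset, and then with the offset and the replicate block, the values were 0.051 and 0.05 for HK1, 0.072 and 0.072 for PFKL, 0.10 and 0.091 for ALDOC, -0.03 and -0.033 for LDHA, -0.13 and -0.13 for LDHB, -0.11 and -0.11 for MPC1, -0.14 and -0.14 for DLAT, 0.083 and 0.083 for PDK2, -0.20 and -0.20 for FH, and -0.14 and -0.14 for MDH1. MPC2 was at 0.056 with library totals and 0.0013 without the filter, and SUCLG1 at 0.023 with library totals. Without 1 library the range crossed 0 for ALDOC (-0.21 to 0.031), ENO2 (-0.034 to 0.11), LDHB (-0.11 to 0.18), MPC1 (-0.0067 to 0.18), MPC2 (-0.035 to 0.04) and SUCLG1 (-0.091 to 0.0014). The causes of these changes were not tested beyond what each setting alters. Each of the 43 genes held at least 332 counts in every library, and how far depth or the number of libraries limits the single calls was not tested.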

Other observations

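The pentose phosphate pathway branches off glycolysis at glucose phosphate and makes NADPH and ribose. Of 10 of its genes tested, 1 was higher and 6 were lower in RBM47-OE in edgeR's quasi-likelihood test, beside 19.1% and 16.9% of all genes. With the GC offset 2 were higher and 5 lower, beside 6.0% and 8.46% of all genes. PGD, a dehydrogenase that forms NADPH, was at -0.35 and TALDO1, the transaldolase, at -0.32 (edgeR adjusted p = 0.0012 for both), and both stayed lower with the offset, at -0.22 and -0.18 (edgeR adjusted p = 0.023 and 0.034). RPE, the epimerase of ribulose phosphate, was the 1 higher gene, from 8.41 to 9.13 FPKM in NC to between 12 and 14.8 FPKM in RBM47-OE, at 0.60 (edgeR adjusted p = 3.2e-05) and at 0.26 with the offset (edgeR adjusted p = 0.0066).

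Of 24 genes of the HIF1 pathway and its targets outside glycolysis, 11 were higher, 0 were lower and 13 were not called in edgeR, beside 19.1% higher and 16.9% lower among all genes, with a median log2 fold change of 0.20. At an unadjusted p under 0.05 edgeR gave 0 lower, and DESeq2 also called 0 lower. Under the GC offset 11 were higher, of which 9 were called in both fits, beside 6.0% higher and 8.46% lower among all genes, and the median was 0.19. INSIG2, a brake on sterol synthesis, was at 0.63 (edgeR adjusted p = 1.2e-05), EGLN1, the oxygen-sensing prolyl hydroxylase, at 0.52 (edgeR adjusted p = 3.2e-05) and BNIP3L, a receptor for mitophagy, at 0.52 (edgeR adjusted p = 2.7e-05). With the offset they were at 0.29, 0.42 and 0.21 (edgeR adjusted p = 0.0018, 1.3e-04 and 0.02). In EGLN1 the RBM47-OE libraries had 26.5, 30.9 and 29.6 FPKM and the NC libraries 19.2, 17.8 and 20.6 FPKM, without overlap. HK2 and PDK1, which are also known HIF1 targets, were higher in both fits. Of glycolytic targets, GAPDH, TPI1, ENO1 and PKM were lower without the offset only, and PGK1 with it only. Among the other glycolysis genes, PFKFB4 and ENO2 were higher with the offset only. PFKFB2 was higher, and PFKP and PFKFB3 were lower, without the offset only. LDHA and the ALDOA row were among those called in neither fit. No relation between these lists was tested.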
